A study of Danio rerio with 8 samples.

Results

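The nuclear genes of the mitochondrial respiratory chain and ATP synthase were followed in ribosome footprints of zebrafish (Danio rerio) embryos. Members were the gene identifiers whose symbol, case ignored, starts with nduf, uqcr, atp5 or cox4 to cox8, or is sdha, sdhb, sdhc, sdhd, cyc1, cycsa or cycsb. This rule found 95 genes among the 33633 identifiers used, and identifiers without a symbol could not be searched. A further 12 identifiers that carry such symbols in the table of gene names were not analysed here, among them those of ATP5PD, UQCR10 and COX7C. By complex, the 95 genes were 38 of complex I, 7 complex I assembly factors (ndufaf symbols), 5 of complex II, 8 of complex III, 2 of cytochrome c, 16 of complex IV and 19 of ATP synthase.

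The 8 samples were whole embryos at 4 hours post fertilization, a blastula stage, in 4 groups of 2. KO_FL were ddx3xb mutant embryos (Ddx3xb-/Ddx3xb-) injected with a construct labelled ddx3xbFL. KO_dN were mutant embryos of the same genotype injected with a construct labelled ddx3xb deltaN. KO were mutant embryos of that genotype and WT were wild type embryos, labelled as control, and the labels name no injection for either. No mutant embryos injected with a control were among the samples, so injection and construct cannot be told apart. The sources used here do not give the content of the constructs, the number of embryos pooled, or whether replicates came from separate clutches. The product of ddx3xb, a DEAD-box helicase related to DDX3X, belongs to a family known for its part in translation initiation.

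The respiratory chain passes electrons from NADH (complex I) and succinate (complex II) through complex III and cytochrome c to oxygen at complex IV. The proton gradient built on the way drives ATP synthase. Most of these subunits are encoded in the nucleus, translated on cytosolic ribosomes and imported, and they join a small set of subunits made inside the mitochondrion from its own genome. The mitochondria of an early embryo come from the egg.

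Each gene had 1 deposited value per group, in FPKM (fragments scaled to transcript length and to the mapped fragments of the library), made by the authors from both replicates. No value below therefore has a replicate error, and no difference has a p-value. Footprints rise with both the amount of an mRNA and the ribosomes on it, and in whole embryos fewer cells of a type and less RNA per cell cannot be told apart. ddx3xb itself stood at 76.7 FPKM in KO_FL, 126 in KO_dN, 14.7 in KO and 129 in WT. Those are deposited values, on scales that differed between groups. The median over genes with a mean of at least 1 FPKM was 1.74 in KO_FL, 0.848 in KO_dN, 1.43 in KO and 8.19 in WT. The ddx3xb values alone therefore do not give the size of a difference between groups. If the 4 files share a scale, steps between the lowest values put the depth of the 8 libraries at 27.1 to 100% of the deepest, with the WT libraries at 27.1 and 34.5%. The number of reads stayed unknown. Markers of muscle and other later tissues stayed at or below 0.897 FPKM in every group (6 genes).

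The scale differed between groups for all genes, not only for these. The FPKM of all genes summed to 395754 in KO_FL, 190693 in KO_dN, 364061 in KO and 2050290 in WT, and the sources used here do not say whether the WT table was made in the same run, so a difference in processing and the genotype cannot be told apart in KO over WT. The highest gene of each group held 13.2% of the FPKM sum in KO_FL, 27.1% in KO_dN, 45.5% in KO and 11.8% in WT. These sums thus rest in part on single genes. The labels give polyA RNA as the molecule, while the protocol describes ribosome footprints. The median log2 ratio over the 7698 genes with a mean of at least 1 FPKM was -1.94 for KO over WT, 0.18 for KO_FL over KO, -0.36 for KO_dN over KO and 0.54 for KO_FL over KO_dN. Ratios were taken as log2((a + 1)/(b + 1)), which understates the change of low genes. A relative log2 ratio is such a ratio minus that median, so 0 is the median gene. Because the median is negative in KO over WT, the added 1 FPKM moves low genes toward a positive relative ratio there. Among the 3019 genes with a mean of 1 to 2.5 FPKM, 38.0% were at least 1.5-fold higher in KO and 5.96% lower. For the 1513 genes at 10 FPKM or more the shares were 19.2 and 57.1%. The same pull holds in KO_dN over KO, and the reverse where the median is positive. At 1 to 2.5 FPKM the median relative log2 ratio was 0.14 in KO_dN over KO. It was -0.08 in KO_FL over KO and -0.22 in KO_FL over KO_dN. Of the 95 members, 48 passed the filter and 47 did not. Of these 48, 16 had a mean under 1 FPKM over KO_FL, KO_dN and KO and passed through WT, so the filter favoured members high in WT. The members nearest to it were NDUFS3 with a mean of 0.996 FPKM, outside, and ATP5MG with 1.08 FPKM, inside.

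Footprint levels differed widely between subunits of the same complex, and ATP synthase held the highest. ATP5F1A, the alpha subunit of the catalytic F1 head, stood at 15.03 FPKM in KO_FL, 6.27 in KO_dN, 6.59 in KO and 199 in WT. ATP5F1B, the catalytic beta subunit, which F1 holds in the same number as alpha, stood at 4.14, 3.53, 3.16 and 19.7 FPKM in KO_FL, KO_dN, KO and WT. ATP5F1C, the gamma subunit of the central stalk, was at 0.611 FPKM in KO_FL, 0.0969 in KO_dN, 0.431 in KO and 3.98 in WT. So alpha was above beta in every group, although F1 holds them in the same number. Beta was above gamma in every group. The inhibitor genes atp5if1a and atp5if1b, which hold back ATP hydrolysis, also lay far apart: atp5if1a had 10.5 FPKM in KO_FL, 5.19 in KO_dN, 7.72 in KO and 78.9 in WT, and atp5if1b stayed at or below 9.27 FPKM.

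Of the 8 complex III genes, 6 were at 1 FPKM or more in KO_FL, 3 in KO_dN, 6 in KO and 7 in WT. Of the 16 complex IV genes it was 5 in KO_FL, 4 in KO_dN, 4 in KO and 7 in WT, with others near 0. In complex III, cytochrome c1 (CYC1) stood at 7.49 FPKM in KO_FL, 4.33 in KO_dN, 4.26 in KO and 17.2 in WT. UQCRFS1, the Rieske iron-sulfur protein, reached no more than 0.934 FPKM, its level in WT. In complex IV, COX4I1 had 5.99 FPKM in KO_FL, 4.24 in KO_dN, 5.20 in KO and 16.9 in WT. Its paralogues cox4i1l and COX4I2 were listed at 0 in KO_FL, KO_dN and KO and at 0.258 and 0.270 FPKM in WT. The COX5B identifier past the filter (ENSDARG00000015978) had 4.52 FPKM in KO_FL, 1.74 in KO_dN, 2.25 in KO and 35.3 in WT, and a second one (ENSDARG00000068738) was at 0 to 0.231 FPKM. cox6b2 had 5.29, 2.90, 2.55 and 20.6 FPKM in KO_FL, KO_dN, KO and WT, and cox6b1 was listed at 0 in WT and at 0.349 in KO_FL, 0.878 in KO_dN and 0.458 in KO. Each of cox8a, cox8b, cox7a1 and cox5aa stayed under 1 FPKM in all groups.

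Complex I, the largest complex, was low for most of its genes. The NADH-binding core subunit NDUFV1 passed the filter, with 1.90 FPKM in KO_FL, 1.15 in KO_dN, 1.84 in KO and 5.32 in WT. NDUFS1, a core iron-sulfur subunit, had 0.629 FPKM in KO_FL, 0.351 in KO_dN, 0.569 in KO and 1.37 in WT. The highest genes of complex I were supernumerary subunits, NDUFB6 at 26.6 and NDUFAB1, the mitochondrial acyl carrier protein, at 17.9 FPKM in WT. None of the 7 assembly factors passed the filter, and their highest value was 1.75 FPKM, for NDUFAF2 in WT. In complex II, SDHA, which carries the flavin, had 1.36 FPKM in KO_FL, 1.57 in KO_dN, 2.75 in KO and 6.28 in WT, and SDHC, a membrane anchor, 0.405, 0.292, 0.425 and 5.68 FPKM. Of the cytochrome c genes, cycsb had 7.91 FPKM in KO_FL, 2.65 in KO_dN, 4.76 in KO and 10.6 in WT, while cycsa was listed at 0 throughout, as were ndufa9b and ndufv3.

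**Figure D1:**
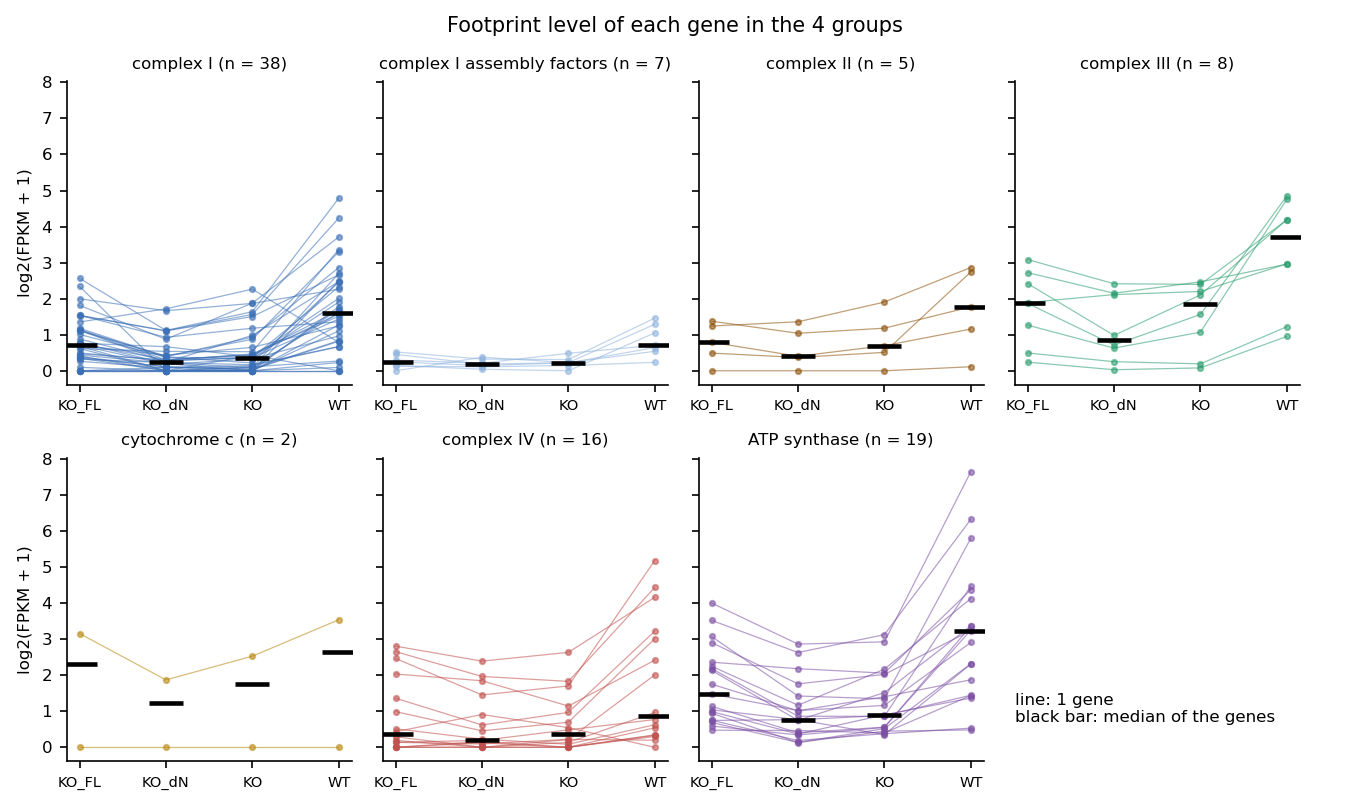
Footprint level of each of the 95 genes as log2(FPKM + 1), in a panel for each complex, with KO_FL, KO_dN, KO and WT from left to right. Each line joins the values of 1 gene and the black bar is the median of the panel's genes; ATP synthase reaches the highest values and the assembly factors stay near 0.

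KO was first set against WT, to see where loss of ddx3xb went with other footprint levels on these genes. As deposited, 88 of the 95 members were lower in KO than in WT, 4 were higher and 3 were at 0 in both, on a scale where the median gene was also lower. Among the 7698 genes past the filter, 7281 were lower and 371 higher. Relative to the median gene the members split evenly: of the 48 that passed, 13 were at least 1.5-fold higher in KO, where 27.6% of all genes were, and 14 at least 1.5-fold lower, where 27.1% of all genes were. Both shares were near the background. Their median relative log2 ratio was -0.01 and the range ran from -2.78 to 3.42. With values scaled by median of ratios in place of centring, 9 were higher (18.8%, against 16.3% of all genes) and 21 lower (43.8%, against 36.7% of all genes). Every member past 1.5-fold kept its direction with scaled values and with TPM, in each of the 4 comparisons.

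The members lowest in KO relative to the median gene came from ATP synthase and complexes I, III and IV. The relative log2 ratio was lowest for ATP5F1A, at -2.78 (6.59 FPKM in KO, 199 in WT). It was -2.51 for atp5mc3b, a gene of the membrane c ring, with 1.54 FPKM in KO and 54.6 in WT. Next came UQCRQ, a small subunit of complex III, at -1.74, with little over 1 FPKM in KO and 26.0 in WT. atp5meb, of membrane subunit e, stood at 0.813 FPKM in KO and 21.2 in WT (-1.67). COX5B followed with a relative log2 ratio of -1.54, the complex III hinge protein UQCRH with -1.35, atp5if1a with -1.25 and NDUFB6 with -1.21. ATP5F1A, atp5mc3b, COX5B and atp5if1a were the 4 members with a mean of at least 10 FPKM. At that level 57.1% of all genes were at least 1.5-fold lower, with a median of -0.84, against -2.02 for the 4 members. That mean includes WT, where each of the 4 stood far above its other groups. The level class thus favours genes high in WT, and these medians add no separate result. At 2.5 to 10 FPKM, 9 of 27 members were lower, where 33.0% of all genes were.

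Members at least 1.5-fold higher in KO relative to the median gene came from all 5 complexes and cytochrome c. The core proteins of complex III had 3.59 FPKM in KO and 6.82 in WT for UQCRC1, and 4.53 in KO and 6.77 in WT for UQCRC2. Their relative log2 ratios were 1.18 and 1.45. In complex II the flavoprotein SDHA (0.98) and the iron-sulfur protein SDHB (1.35; 1.27 FPKM in KO, 2.42 in WT) were past 1.5-fold, and the anchor SDHC was at -0.29. In complex I, NDUFA9 stood at 2.65 FPKM in KO and 3.80 in WT (1.55), NDUFB2 at 1.27 and 1.57 (1.76) and NDUFV1 had a relative log2 ratio of 0.79. cycsb had a relative log2 ratio of 0.93. In ATP synthase the c ring gene ATP5MC3 (1.64 FPKM in KO, 2.66 in WT) had 1.47 and ATP5MG, of subunit g, 1.38. CYC1, at 0.15, COX4I1, at 0.42, and ATP5F1B, at -0.37, lay within 1.5-fold of the median gene. By level, 5 of 17 members with a mean of 1 to 2.5 FPKM were higher, where 38.0% of all genes were. At 2.5 to 10 FPKM it was 8 of 27 members, where 21.7% of all genes were higher.

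NDUFA6, a supernumerary subunit of complex I, went against the rest. It stood at 1.56 FPKM in KO_FL, 2.29 in KO_dN, 3.81 in KO and 0.727 in WT, so WT was lowest, and its relative log2 ratio for KO over WT was 3.42. Of the 48 members that passed, 46 were highest in WT, and NDUFA6 was the only one lowest there. The same count over all genes was not made, but 7281 of the 7698 past the filter were lower in KO than in WT. NDUFB2 was highest in KO_FL, at 1.91 FPKM, with 0.905 in KO_dN, 1.27 in KO and 1.57 in WT. In the RefSeq annotation of GRCz12tu, a later build than the one used for the files, NDUFA6 and NDUFB2 lie across other protein-coding genes, and 13 of the 48 do so by symbol match. Others among the 13 were atp5meb, NDUFB6, ndufb3, cox6b2, cycsb, ATP5PO and ATP5F1C. The sources used here do not say whether the counting kept such reads apart.

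**Figure D2:**
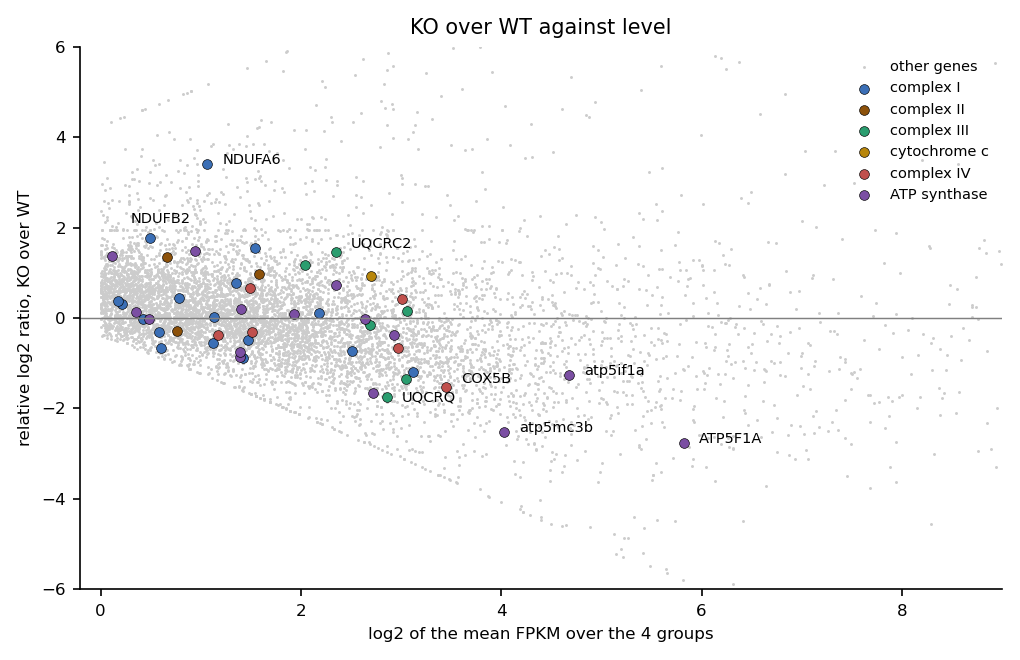
Relative log2 ratio of KO over WT (vertical) against the log2 of the mean FPKM over the 4 groups (horizontal); small grey points are all other genes that passed the filter, large points the 48 members, coloured by complex. The horizontal line is the median gene, and 136 genes lie outside the axes; ATP5F1A and atp5mc3b lie lowest and NDUFA6 highest among the members.

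Ratios between subunits within a group do not depend on the scale of that group, and several differed between KO and WT. ATP5F1A over ATP5F1B was 2.09 in KO and 10.1 in WT. It was 3.63 in KO_FL and 1.78 in KO_dN, so WT stood apart from all 3 mutant groups. UQCRQ over UQCRC1 was 0.306 in KO and 3.82 in WT, with 0.518 in KO_FL and 0.164 in KO_dN. UQCRH over UQCRC1 was 0.543 in KO and 4.08 in WT, with 0.979 in KO_FL and 0.192 in KO_dN. In these 3 pairs WT was highest and KO_FL second. Both complex III pairs were thus below 1 in every mutant group and above 1 in WT. SDHA over SDHC ran the other way, with 6.46 in KO and 1.11 in WT, and with 3.36 in KO_FL and 5.36 in KO_dN. Of 13 pairs computed, WT was above the mutant groups in 9, below them in 2 and between them in 2. The other pair below them was COX4I1 over cox6b2, with 1.132 in KO_FL, 1.46 in KO_dN, 2.04 in KO and 0.819 in WT. CYC1 over UQCRC1 lay between, with 2.76 in KO_FL, 1.30 in KO_dN, 1.19 in KO and 2.52 in WT, and so did ATP5F1A over ATP5F1C, with 64.8 in KO_dN and 49.99 in WT. The pairs were picked by hand, several share UQCRC1, NDUFA9 or ATP5F1A, and they were not set against random pairs. UQCRQ, UQCRH and NDUFB6 were already lower in KO relative to the median gene, and UQCRC1 and NDUFA9 higher. Ratios between these genes restate those differences, so the count of pairs adds no separate result.

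**Figure D3:**
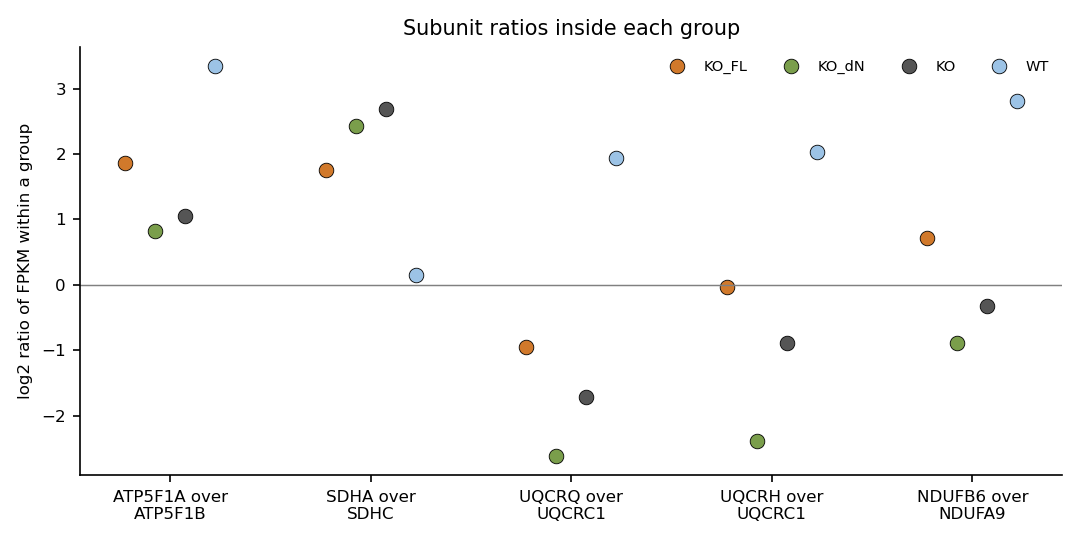
Ratio of the FPKM of 2 subunits inside each group, on a log2 scale; points are KO_FL, KO_dN, KO and WT from left to right for each pair, and the line marks equal levels. Of the 5 pairs plotted, WT lies above the mutant groups in all but SDHA over SDHC, where it lies lowest.

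KO_FL was then set against KO, to compare mutants with and without the ddx3xbFL injection, with the same KO libraries as above. As deposited, 71 of the 95 members were higher in KO_FL, 15 lower and 9 at the same value. Among the 7698 genes past the filter, 5454 were higher and 2110 lower on that scale. Relative to the median gene, 11 of the 48 that passed were at least 1.5-fold higher (22.9%, against 10.3% of all genes) and 2 were lower (6.86% of all genes). Their median relative log2 ratio was 0.14. The higher genes were 4 of 15 for ATP synthase, 3 of 6 for complex IV, 4 of 17 for complex I, and 0 for complexes II and III and cytochrome c.

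Within ATP synthase the 4 higher genes were 3 of the membrane sector and 1 of the F1 head. atp5mc3b stood at 7.42 FPKM in KO_FL and 1.54 in KO (relative log2 ratio 1.55), and atp5meb at 3.54 and 0.813 (1.15). atp5mc1, another c ring gene, had 6.49 FPKM in KO_FL and 3.06 in KO (0.71), and ATP5F1A 15.03 and 6.59 (0.90). As deposited, 40 of the 48 members had WT highest and KO_FL next, these 4 among them. The median over the 7698 genes past the filter had that order too. It was 8.19 FPKM in WT, 1.74 in KO_FL, 1.43 in KO and 0.848 in KO_dN. How many of all genes had that order was not counted, so the count of members adds no separate result. ATP5F1B, at 0.13, ATP5F1C, at -0.01, and the membrane genes ATP5MC3, at 0.17, and atp5mea, at -0.09, were near the median gene. Of complex IV, cox6a1 (ENSDARG00000022438) stood at 3.09 FPKM in KO_FL and 1.21 in KO (0.71), cox6b2 at 5.29 and 2.55 (0.65) and COX5B at 4.52 and 2.25 (0.59), while COX4I1 had a relative log2 ratio of 0.00. Of complex I, NDUFB6 had 4.91 FPKM in KO_FL and 2.11 in KO (0.75).

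ndufb3, another supernumerary subunit of complex I, stood at 4.06 FPKM in KO_FL and was listed at 0 in KO_dN and KO, and at 4.64 in WT. It is counted among the 11, and no fold is given against a group at 0. In the GRCz12tu annotation it overlaps ybey. The lower members were NDUFA6, with a relative log2 ratio of -1.09, and SDHA, with 1.36 FPKM in KO_FL and 2.75 in KO (-0.84). UQCRC1 was next, at -0.48, within 1.5-fold.

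The mix of c ring genes differed between the groups. The c ring genes encode nearly the same mature protein, and reads shared between them could be split by the counting. atp5mc3b made up 45.6% of the summed FPKM of atp5mc1, ATP5MC3 and atp5mc3b in KO_FL, 33.0% in KO_dN, 24.6% in KO and 83.1% in WT. In KO_dN and KO the most footprints per length lay on atp5mc1, with 46.9% and 49.0%, and in WT on atp5mc3b. atp5meb made up 48.6% of the sum of atp5mea and atp5meb in KO_FL, 39.6% in KO_dN, 18.9% in KO and 56.3% in WT. In the GRCz12tu annotation atp5meb overlaps idua. atp5mea itself had 3.75 FPKM in KO_FL and 3.49 in KO. Other paralogue pairs kept the same leading gene in every group: UQCRC2 over uqcrc2a, NDUFAB1 over ndufab1b, atp5if1a over atp5if1b and cox6b2 over cox6b1. Shares of the leading gene were 76.8% or more in each of these.

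**Figure D4:**
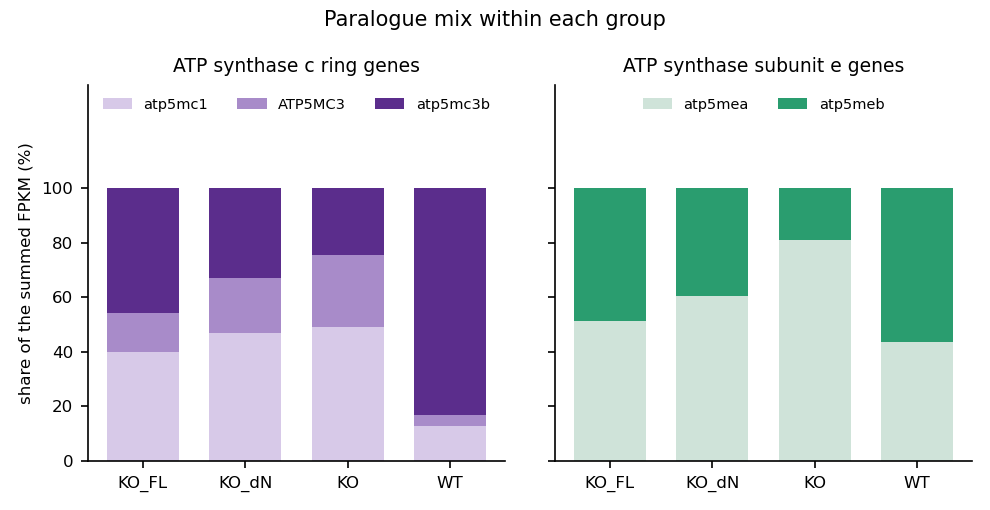
Share (%) of the summed FPKM held by each paralogue of the ATP synthase c ring (left) and subunit e (right), in KO_FL, KO_dN, KO and WT from left to right. atp5mc3b holds 83.1% in WT and 24.6% in KO, and atp5meb 56.3% in WT and 18.9% in KO.

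Markers of the outer and yolk layers also differed between the groups. The 8 enveloping layer markers summed to 84.95 FPKM in KO_FL, 19.7 in KO_dN, 36.3 in KO and 315.5 in WT, with 5 at least 1.5-fold higher relative to the median gene in KO_FL over KO and 1, krt92, lower. The 6 yolk syncytial layer markers summed to 147.9 FPKM in KO_FL, 43.3 in KO_dN, 83.7 in KO and 433 in WT, with apoa2 listed at 0 in KO_FL, KO_dN and WT. Most of that sum was ctsla, with 128.1, 40.0, 79.6 and 375.3 FPKM in KO_FL, KO_dN, KO and WT. These sums are as deposited. With values scaled by median of ratios, the enveloping layer sums were 94.2 in KO_FL, 44.1 in KO_dN, 49.7 in KO and 92.8 in WT. Those of the yolk syncytial layer were then 164.1, 96.9, 114.6 and 127.4 in the same order. Of 4 yolk syncytial layer markers past the filter, 3 were at least 1.5-fold higher in KO_FL over KO. In KO over WT, 1 of 8 enveloping layer markers was higher and 5 lower, and 3 of 4 yolk syncytial layer markers were lower. In KO_FL over KO_dN, 6 of 8 enveloping layer markers were higher and 1 lower, and 4 of 4 yolk syncytial layer markers were higher. Of all genes, 27.6% were higher and 27.1% lower in KO over WT. The shares were 10.3 and 6.86% in KO_FL over KO, and 14.5 and 6.55% in KO_FL over KO_dN. The part of these markers in the values of the respiratory chain genes was not tested.

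For the deltaN construct, KO_dN was set against KO, once more with the same KO libraries. As deposited, 59 of the 95 members were lower in KO_dN, 26 higher and 10 at the same value. Among the 7698 genes past the filter, 6622 were lower and 886 higher on that scale. Relative to the median gene, 3 of the 48 were at least 1.5-fold higher (4.01% of all genes) and 3 lower (7.5% of all genes), with a median of 0.12. With scaled values 8 were higher and 5 lower (6.33 and 6.24% of all genes), and with TPM 10 and 6 (10.7 and 8.18% of all genes). The higher genes were cox6a1, at 2.59 FPKM in KO_dN and 1.21 in KO (relative log2 ratio 1.06), ATP5PO, the stalk subunit that binds F1, at 0.701 and 0.277 (0.78), and NDUFB4, at 0.589 and 0.306 (0.65). The lower genes were UQCRB, at 0.975 FPKM in KO_dN and 3.30 in KO (-0.76), ndufa11, at 0.833 and 2.68 (-0.64), and atp5mea, at 1.25 and 3.49 (-0.64). ATP5PO and NDUFB4 lay below 1 FPKM in both groups. Of the genes named above for KO_FL, ATP5F1A had a relative log2 ratio of 0.30 in KO_dN over KO, atp5mc3b of 0.44 and atp5meb of 0.37. No member was past 1.5-fold in opposite directions in KO_FL over KO and KO_dN over KO (0 of 48). Both ratios share the KO values, which moves them the same way, and the same count over all genes was not made. That 0 therefore shows no likeness between the constructs.

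A direct contrast of KO_FL and KO_dN used none of the KO libraries. As deposited, 77 of the 95 members were higher in KO_FL, 10 lower and 8 at the same value. Among the 7698 genes past the filter, 6942 were higher and 615 lower on that scale. Relative to the median gene, 10 of the 48 were at least 1.5-fold higher in KO_FL (20.8%, against 14.5% of all genes) and 3 lower (6.55% of all genes), with a median of 0.10. With scaled values 8 were higher and 5 lower (11.7 and 8.55% of all genes), and with TPM 11 and 6 (14.2 and 13.2% of all genes). The highest were ndufb3, listed at 0 in KO_dN, atp5mc3b at 7.42 FPKM in KO_FL and 1.68 in KO_dN (1.11) and NDUFB6 at 4.91 and 1.17 (0.91). UQCRB had 4.35 FPKM in KO_FL and 0.975 in KO_dN (0.90), atp5meb at 3.54 and 0.817 (0.79) and cycsb at 7.91 and 2.65 (0.75). The lower members were NDUFA6, with 1.56 FPKM in KO_FL and 2.29 in KO_dN (-0.90), UQCRC1, with 2.71 and 3.33 (-0.76), and SDHA, with 1.36 and 1.57 (-0.65). Complex IV had 0 of 6 in either direction. In all, 6 of the 48 were at least 1.5-fold higher in KO_FL over both KO and KO_dN. These ratios share the KO_FL values, so some overlap follows from that alone, and the same count over all genes was not made.

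**Figure D5:**
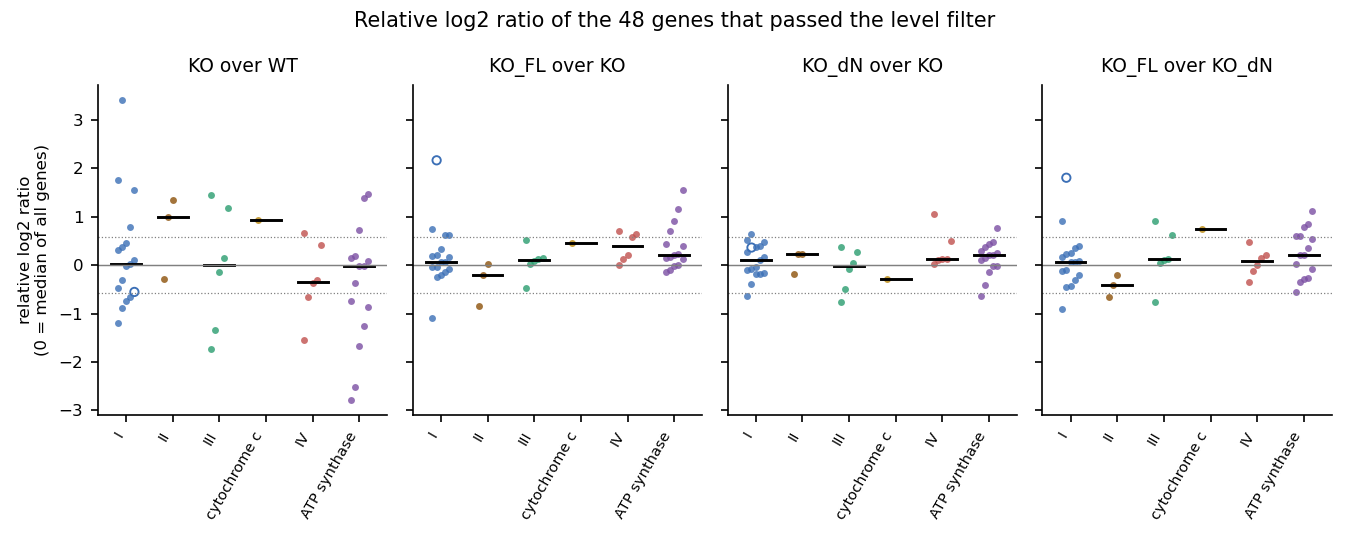
Relative log2 ratio of the 48 members that passed the filter, in a panel for each comparison and a column for each complex; 0 is the median of all genes, dotted lines mark 1.5-fold and black bars the median of each column. Open circles are values against a group listed at 0, which rest on the added 1 FPKM; the spread is widest for KO over WT and narrowest for KO_dN over KO.

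The 13 subunits encoded by the mitochondrial genome stood far above the nuclear ones, with medians of 52.5 FPKM in KO_FL, 27.4 in KO_dN, 32.4 in KO and 395 in WT. Relative to the median gene, 12 of them were at least 1.5-fold lower in KO than in WT and 5 were higher in KO_FL than in KO. All 13 had a mean over 10 FPKM, and of the 1513 genes at that level 57.1% were lower in KO over WT and 27.8% higher in KO_FL over KO. Cycloheximide acts on cytosolic ribosomes, and whether the mitochondrial fragments are footprints of mitochondrial ribosomes was not tested.

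Genes that build or supply the chain were given from lists outside the rule, with the same background shares as above. Of 38 assembly factors, 12 passed the filter, and in KO over WT 2 were at least 1.5-fold higher and 2 lower. The copper chaperone of complex IV, cox17, stood at 2.31 FPKM in KO_FL, 1.02 in KO_dN, 1.74 in KO and 59.96 in WT, with a relative log2 ratio of -2.53 for KO over WT. COA4, another complex IV assembly factor, was listed at 0 in WT and stood at 1.69 FPKM in KO_FL, 1.22 in KO_dN and 3.51 in KO. In KO_FL over KO, 0 of the 12 were higher and 1, COA4, was lower. Of 20 genes of the citrate cycle and pyruvate dehydrogenase, 14 passed, with 6 higher and 1 lower in KO over WT and 0 in either direction in KO_FL over KO. SUCLA2, of succinyl-CoA synthetase, had 1.78 FPKM in KO and 3.16 in WT (relative log2 ratio 1.36), and DLST, of the oxoglutarate dehydrogenase complex, 2.71 and 21.4 (-0.65). Of 25 mitochondrial import genes, 17 passed, with 5 higher and 4 lower in KO over WT. TOMM70, an import receptor, stood at 5.53 FPKM in KO_FL, 1.74 in KO_dN, 3.33 in KO and 72.8 in WT (-2.15 for KO over WT). TOMM5, a small subunit of the import pore, had 8.13 FPKM in KO_FL, 0.632 in KO_dN, 3.36 in KO and 18.1 in WT, a relative log2 ratio of 1.95 for KO_FL over KO_dN.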

How the data were processed

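Values were read from 4 deposited tables, 1 per group, in FPKM; the design text says that the authors made each from both replicates, and values were taken to be means. The submitters' processing notes name the build Zv9 and, as tools, Cufflinks 2.2.1, TopHat2 2.1.1, Bowtie, Trimmomatic 0.36 and cutadapt 1.13. Settings are not given in the sources used. Per the labels' protocols, lysate of cycloheximide-treated embryos was digested with RNase I and ribosomal RNA depleted. FPKM divides by the mapped fragments of a library, so fragments outside the listed genes lower every value of a group.

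Identifiers on more than 1 line of the WT table (101) or absent from it (3) were left out; no member was among the 101. Symbols are spelled as in the gene name table. Members were compared with the 7698 genes at a mean of at least 1 FPKM, with a pseudocount of 1 and ratios centred on their median (pandas 2.3.3, numpy 2.4.6). A member counted as higher or lower past 1.5-fold. Scaling factors by median of ratios used 3177 genes. The ratio code was tested on simulated data with almost no pseudocount, and with changes put only into genes well above 0 in every group. That test did not cover the pseudocount used here or genes at low levels. The members and lists were chosen with earlier results of these data known. Named genes were the 3 highest of each complex, the 3 highest and lowest ratios of each comparison, fixed catalytic subunits and paralogue pairs. ATP5MG, ndufab1b, NDUFS3, ndufa9b and ndufv3 fall outside it and were named after their values were seen. The values of 1 gene of the rule are not reported here.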

Additional observations from a re-analysis of the deposited data

How the results depend on the processing

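Counts of members past 1.5-fold kept within 1.5 times of their value for 31 of 64 combinations of a count and an alternative. Summing identifiers on several lines changed none of the counts. No member was among those identifiers, so that alternative could act only through the median of all genes. It is included in the 31 and the 64, and among the alternatives below. Higher and lower counts follow as pairs for KO over WT, KO_FL over KO, KO_dN over KO and KO_FL over KO_dN, against 13 and 14, 11 and 2, 3 and 3, and 10 and 3 as reported. A mean of at least 5 FPKM left 18 members and gave 6 and 7, 4 and 0, 5 and 0, and 1 and 1. The shares of all genes, in the same order, were then 31.9 and 29.7, 15.8 and 8.81, 9.47 and 7.10, and 15.8 and 13.1%. A pseudocount of 5 FPKM gave 7 and 11, 3 and 0, 0 and 0, and 3 and 0. For all genes the shares were then 13.4 and 26.3, 6.00 and 1.99, 1.403 and 4.68, and 10.2 and 1.36%. A pseudocount of 0.1 FPKM gave 15 and 19, 16 and 3, 14 and 8, and 14 and 9. With it the shares of all genes were 32.3 and 32.1, 16.9 and 14.7, 15.9 and 11.5, and 17.2 and 19.2%. No filter beyond a mean above 0 FPKM gave 3 and 48, 18 and 2, 1 and 7, and 26 and 0 of 92 members. In KO over WT that was 3.26 and 52.2% of members, against 4.50 and 31.7% of all genes. For the other 3 comparisons all genes had 4.90 and 1.71, 0.728 and 7.68, and 13.0 and 0.794%. A filter that left out WT gave 12 and 11, 8 and 2, 4 and 1, and 6 and 3 of 32 members. All genes then had 31.8 and 31.3, 12.9 and 10.4, 6.68 and 6.93, and 14.5 and 12.2%. Values scaled by median of ratios gave 9 and 21, 10 and 2, 8 and 5, and 8 and 5, and TPM gave 14 and 16, 13 and 3, 10 and 6, and 11 and 6. All genes had 16.3 and 36.7, 10.3 and 7.98, 6.33 and 6.24, and 11.7 and 8.55% with scaled values. With TPM they had 28.2 and 27.8, 13.4 and 10.8, 10.7 and 8.18, and 14.2 and 13.2%.

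Without the filter the median log2 ratio of all genes in KO over WT was -0.49 in place of -1.94, and the relative ratio of 8 of the 13 members higher in KO turned negative by that shift: atp5mc1 (-0.73), cox6a1 (-0.78), cycsb (-0.52), NDUFV1 (-0.66), SDHA (-0.47), SDHB (-0.10), UQCRC1 (-0.28) and ATP5MG (-0.071). No other named member past 1.5-fold changed sign under the alternatives run. The share of members higher in KO_FL over KO was above that of all genes under each of these 8 alternatives, by 6.25 against 6.00% with a pseudocount of 5 FPKM and by 33.3 against 16.9% with 0.1 FPKM. No paired analysis was possible because each group has 1 deposited value per gene, and for the same reason no replicate could be left out. Of the 48 members tested, 19 lay below 1 FPKM in KO, where a few reads decide a value, and short transcripts need fewer reads for the same FPKM.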

Other observations

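Carriers that move ATP and phosphate across the inner membrane stood near the median gene or above it in KO over WT. SLC25A5, an ADP/ATP carrier, stood at 37.1 FPKM in KO_FL, 14.6 in KO_dN, 22.4 in KO and 70.4 in WT. The phosphate carrier SLC25A3 (ENSDARG00000025566) had 30.6, 19.4, 26.5 and 66.6 FPKM in KO_FL, KO_dN, KO and WT. Their relative log2 ratios for KO over WT were 0.33 and 0.64, and in KO_FL, KO_dN and KO both stood above each of the 95 respiratory chain and ATP synthase genes. The other ADP/ATP carriers, SLC25A4 and SLC25A6, stayed at or below 0.326 FPKM.

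Of 21 glycolysis genes, 9 passed the filter. In KO over WT, 4 were at least 1.5-fold higher (27.6% of all genes) and 3 lower (27.1% of all genes). GAPDH stood at 3.96 FPKM in KO_FL, 3.05 in KO_dN, 2.58 in KO and 39.4 in WT, and ALDOA (ENSDARG00000011665), an aldolase, at 6.65, 3.68, 4.42 and 6.61 FPKM. In KO_FL over KO, 0 of the 9 were higher (10.3% of all genes). Of 10 regulators of mitochondrial biogenesis, 5 passed. TFAM, which packages mitochondrial DNA and takes part in its transcription, had 1.25 FPKM in KO_FL, 0.284 in KO_dN, 0.477 in KO and 16.5 in WT. Its relative log2 ratio for KO over WT was -1.62. pprc1, a coactivator, had 5.71, 2.72, 3.77 and 56.5 FPKM (-1.65), and the transcription factor gene GABPA 4.60, 1.58, 3.49 and 8.01 FPKM (0.94).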
